A study of Mus musculus with 27 samples.

Results

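Leukocytes leave the blood in steps that depend on adhesion molecules of the vessel wall, and 8 genes of these steps were followed in the brains of mice that received human antibodies against the neuronal surface protein IgLON5. The members were Vcam1, Icam1, Icam2, Selp, Sele, Itga4, Itgal and Ackr1, taken by symbol in the GENCODE M21 annotation, and all 8 of them were found among the 55487 genes of the count table. RNA-seq was performed on hippocampus and cortex from the side opposite to the infusion. Male wild-type C57Bl/6J mice, 8 weeks old, were infused for 14 days into the lateral ventricle of the right side, at 0.25 μl/hour. The groups were PBS (n = 5 hippocampi and 5 cortices), the control antibody pCtrl (n = 4 hippocampi and 5 cortices) and α-IgLON5#1 (n = 4 hippocampi and 4 cortices), which is patient-derived IgG purified by its binding to IgLON5. For pCtrl the sources differ, since the methods of the paper name serum IgG of a healthy person and the labels name a monoclonal human IgG. The 27 libraries came from 14 mice, taking the number in a library's label as the mouse's number.

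P-selectin (Selp) and E-selectin (Sele) are endothelial proteins that catch passing leukocytes and let them roll. VCAM-1, ICAM-1 and ICAM-2 on the endothelium then hold the leukocyte through its integrins. The integrin chain α4 (Itga4) pairs with β1 or β7 and binds VCAM-1, and the chain αL (Itgal) pairs with β2 to form LFA-1, which binds ICAM-1 and ICAM-2. Ackr1 is an atypical receptor of venules and erythrocytes that binds many inflammatory chemokines without the usual signalling. Resting brain endothelium is known for low levels of the selectins, and inflammatory cytokines induce the selectins, VCAM-1 and ICAM-1 through the transcription factor NF-κB. Itga4 and Itgal are leukocyte integrins, so the 8 genes cover both sides of the contact and are not all endothelial.

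On the GRCm38 build, Vcam1 (ENSMUSG00000027962.14) lies on chromosome 3 from 116109949 to 116129688, minus strand. Icam1 (ENSMUSG00000037405.8) lies on chromosome 9 from 21015985 to 21028817, plus strand. Icam2 (ENSMUSG00000001029.15) lies on chromosome 11 from 106377656 to 106388075, minus strand. The 2 selectin genes are near each other on the plus strand of chromosome 1, Sele (ENSMUSG00000026582.6) from 164048234 to 164057677 and Selp (ENSMUSG00000026580.16) from 164115264 to 164150026. Ackr1 (ENSMUSG00000037872.5) lies on the minus strand of the same chromosome from 173331886 to 173333750. Itga4 (ENSMUSG00000027009.18) lies on chromosome 2 from 79255426 to 79333123, and Itgal (ENSMUSG00000030830.18) on chromosome 7 from 127296260 to 127335138, both on the plus strand.

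The 250 bases before the start site are given for Icam1, Selp and Sele, which cytokines induce and which peaked in the same mouse in both tissues. Vcam1 shares these traits but had no sequence in the source used. The sequences are from RefSeq (GRCm38.p6, plus strand), where 5 of the 8 members had an entry and Vcam1, Icam2 and Itgal had none. Capitals mark each match, on either strand, to GGNNNTTCC, a short form of the site that NF-κB binds. In windows from 250 bases before to 50 bases after the start site, 18.5% of 32851 RefSeq promoters held a match. Icam1 has 2 matches, beginning at positions -153 and -84 from the start site. Selp has 1 at -14, Sele 1 at -145 and Ackr1 1 at -131, and Itga4 has 0. A match describes the letters only. The windows are chr9:21015690-21015939 (Icam1), chr1:164115014-164115263 (Selp) and chr1:164047984-164048233 (Sele).
Icam1: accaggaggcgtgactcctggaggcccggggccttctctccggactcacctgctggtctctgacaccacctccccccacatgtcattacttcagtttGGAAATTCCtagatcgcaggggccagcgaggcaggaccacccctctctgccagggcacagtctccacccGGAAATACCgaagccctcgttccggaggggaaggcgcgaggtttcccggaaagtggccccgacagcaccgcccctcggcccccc
Selp: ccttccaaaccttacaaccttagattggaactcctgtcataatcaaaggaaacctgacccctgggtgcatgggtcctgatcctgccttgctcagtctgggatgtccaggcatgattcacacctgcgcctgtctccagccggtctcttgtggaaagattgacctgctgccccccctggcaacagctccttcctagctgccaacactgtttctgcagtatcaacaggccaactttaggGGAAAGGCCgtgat
Sele: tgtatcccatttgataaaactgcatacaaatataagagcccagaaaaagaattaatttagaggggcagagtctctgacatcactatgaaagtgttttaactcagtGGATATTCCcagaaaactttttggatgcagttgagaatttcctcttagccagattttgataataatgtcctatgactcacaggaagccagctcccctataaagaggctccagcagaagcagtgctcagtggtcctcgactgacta

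The libraries held 19385642 to 58550621 counted reads. Levels are given as CPM, counts scaled to a common library size after TMM normalization. Levels are given as mean ± SD and log2 fold changes ± their standard error. Of the whole table, 20271 genes passed the filter of at least 10 counts in at least 4 libraries, and 6 of the 8 members were among them. Selp and Sele did not pass and are described by their counts. The labels name neurons as the cell type, but the samples were whole tissue, with all 12 endothelial marker genes (Cldn5, Flt1, Kdr and others) above the filter and a summed endothelial marker level of 216 to 346 CPM across the libraries. In such tissue, more cells of a type and more RNA per cell cannot be told apart. One animal, α-IgLON5#1 mouse 8, stood apart from the other α-IgLON5#1 mice in several members, and results that rest on it are given with and without it.

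In the PBS mice, the members covered a wide range. Per kilobase of merged exon, Ackr1 had the highest level, at 14.0 ± 0.519 CPM in the hippocampus and 19.7 ± 1.85 in the cortex (SD, n = 5 each), but 25.7% of its exon bases are shared with Cadm3 on the same strand and the part of Cadm3 in this level was not tested. Vcam1 followed with 3.93 ± 0.429 and 3.51 ± 0.251 CPM per kilobase, and Itga4 with 3.48 ± 0.251 and 2.76 ± 0.485. Icam2 stood at 0.809 ± 0.175 and 0.849 ± 0.238, above Icam1 at 0.518 ± 0.0316 and 0.559 ± 0.105 and Itgal at 0.115 ± 0.0346 and 0.214 ± 0.0347. The selectins were close to 0, with Sele at 0.0123 ± 0.00901 and 0.0303 ± 0.0280 CPM per kilobase and Selp at 0.00390 ± 0.00364 and 0.00143 ± 0.00320. In this order, the ranges of mean ± SD overlapped between Vcam1 and Itga4 in the hippocampus, between Icam2 and Icam1 in the cortex, and between Sele and Selp in both tissues.

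**Figure D1:**
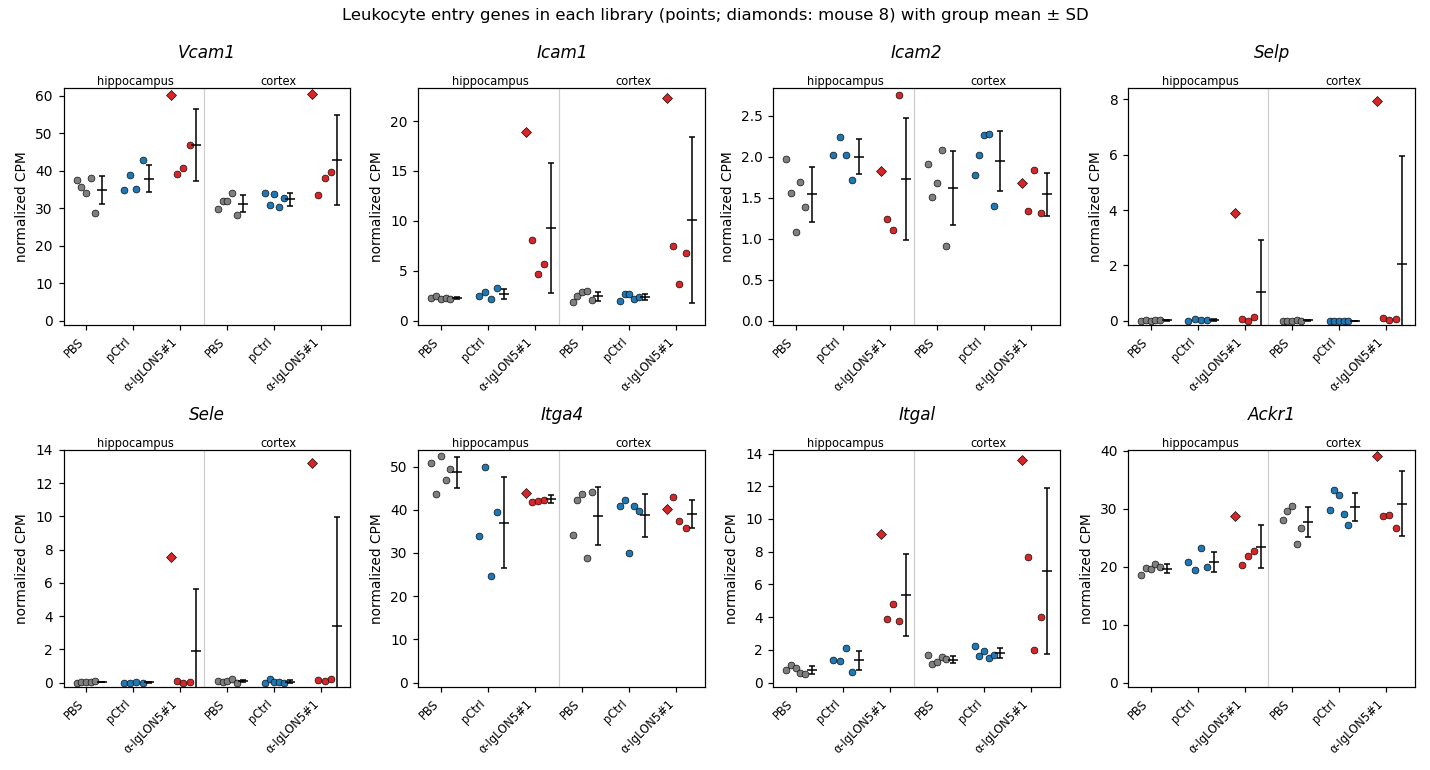
Normalized CPM of the 8 members (vertical axes, linear, 1 panel per gene) in each library of the 6 groups, with hippocampus on the left and cortex on the right of each panel. Points are libraries, diamonds are α-IgLON5#1 mouse 8, bars are the mean ± SD (stopped at the axis where the SD exceeds the mean), and Icam1 is above all controls in each α-IgLON5#1 library, Itgal in each but the cortex of mouse 16 (2.0001 CPM, within the pCtrl range), and Selp and Sele are highest in mouse 8.

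Icam1, the ligand of LFA-1 that cytokines induce, rose in α-IgLON5#1 tissue, to 3.44 to 4.25 times the level of the controls. In the hippocampus the levels were 2.25, 2.48, 2.17, 2.29 and 2.12 CPM in PBS mice, 2.43, 2.88, 2.12 and 3.29 in pCtrl mice, and 18.9, 8.11, 4.63 and 5.64 in α-IgLON5#1 mice 8, 9, 16 and 17. Each α-IgLON5#1 library lay above each control library, a separation seen upward in 6.68% of all tested genes against pCtrl and 4.49% against PBS, and mouse 8 was highest. On the log2 scale the rise was 1.78 ± 0.394 compared to pCtrl (fold change ± standard error, adjusted p = 0.00587, edgeR) and 2.02 ± 0.373 compared to PBS (adjusted p = 0.000689). Without the hippocampal library of mouse 8 the latter was 1.42 (adjusted p = 0.0132). The call against pCtrl was lost without the hippocampal library of mouse 8 (log2 fold change 1.18, adjusted p = 0.0664) and was made without both of its libraries (log2 fold change 1.18, adjusted p = 0.000807). It was also lost when only the pair of groups entered the fit (adjusted p = 0.0613) and with a covariate for tissue composition, a score from genes that differ between PBS cortex and hippocampus (log2 fold change 1.28, adjusted p = 0.403).

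In the cortex, Icam1 levels were 1.91, 2.42, 2.86, 2.93 and 2.06 CPM in PBS mice, 2.003, 2.66, 2.64, 2.18 and 2.36 in pCtrl mice, and 22.3, 7.47, 3.69 and 6.81 in α-IgLON5#1 mice 8, 9, 16 and 17. The groups again did not overlap (upward in 3.68% of all tested genes against pCtrl and 3.14% against PBS), and the same mouse was highest and the same mouse (16) lowest among the treated. Log2 fold changes were 2.09 ± 0.374 over pCtrl (adjusted p = 0.000863) and 2.05 ± 0.370 over PBS (adjusted p = 0.000826). Without the cortical library of mouse 8 these were 1.34 (adjusted p = 0.0137) and 1.301 (adjusted p = 0.0152).

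Itgal, the αL chain of LFA-1 and so the leukocyte partner of Icam1, rose to 3.76 to 6.94 times the level of the controls. Hippocampal levels were 0.750, 1.07, 0.880, 0.594 and 0.494 CPM in PBS mice, 1.39, 1.297, 2.09 and 0.638 in pCtrl mice, and 9.06, 3.89, 4.78 and 3.75 in α-IgLON5#1 mice 8, 9, 16 and 17. The α-IgLON5#1 libraries all lay above the controls (upward in 6.68% of all tested genes against pCtrl and 4.49% against PBS), and the pCtrl libraries ranged more widely than those of the PBS mice. On the log2 scale this was 1.97 ± 0.407 over pCtrl (adjusted p = 0.00308) and 2.79 ± 0.401 over PBS (adjusted p = 2.65e-05). Without mouse 8 the first was 1.61 (adjusted p = 0.0242).

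In the cortex, Itgal levels were 1.69, 1.12, 1.24, 1.54 and 1.43 CPM in PBS mice, 2.25, 1.65, 1.91, 1.51 and 1.66 in pCtrl mice, and 13.6, 7.69, 2.0001 and 4.03 in α-IgLON5#1 mice 8, 9, 16 and 17. Mouse 16 fell within the pCtrl range, so these groups overlapped, whereas all α-IgLON5#1 cortices were above the PBS cortices (3.14% of all tested genes). Here the log2 fold changes were 1.91 ± 0.375 over pCtrl (adjusted p = 0.00224) and 2.27 ± 0.380 over PBS (adjusted p = 0.000354). Without mouse 8 these were 1.33 (adjusted p = 0.0433) and 1.69 (adjusted p = 0.00466), and with only the pair of groups in the fit the adjusted p over pCtrl was 0.0583.

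Set against all genes tested, 2 of the 6 tested members were called higher at an adjusted p under 0.05 in α-IgLON5#1 hippocampi compared to pCtrl, where 4.23% of all genes were, and the same 2 compared to PBS (3.81% of all genes). In the cortex, Icam1 and Itgal were called compared to pCtrl (3.01% of all genes), and Vcam1, Icam1 and Itgal compared to PBS (2.97% of all genes). Of the 6, 0 were called lower in these comparisons (2.78%, 0.474%, 0.449% and 0.0740% of all genes). The comparisons with pCtrl and with PBS share the α-IgLON5#1 libraries of a tissue. The median log2 fold change of these 6 members over pCtrl was 0.25 in the hippocampus and 0.21 in the cortex, beside 0.00125 and -0.00661 for all tested genes. Without mouse 8 the member medians were 0.17 and 0.097. A restriction to mice 8 to 17, which hold all α-IgLON5#1 mice and fewer pCtrl mice, left 0 members called over pCtrl in either tissue, with log2 fold changes of 1.79 and 2.06 for Icam1 and 1.99 and 1.81 for Itgal. It kept pCtrl hippocampi 10 and 15 and pCtrl cortices 10, 11 and 15. Of the PBS mice only mouse 14 lies in this range, so treatment and mouse number cannot be fully told apart. Without both libraries of mouse 8, Icam1 and Itgal were called in all 4 comparisons and no other tested member was. The share of all genes called in that fit is not reported here, so this count has no background beside it.

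**Figure D2:**
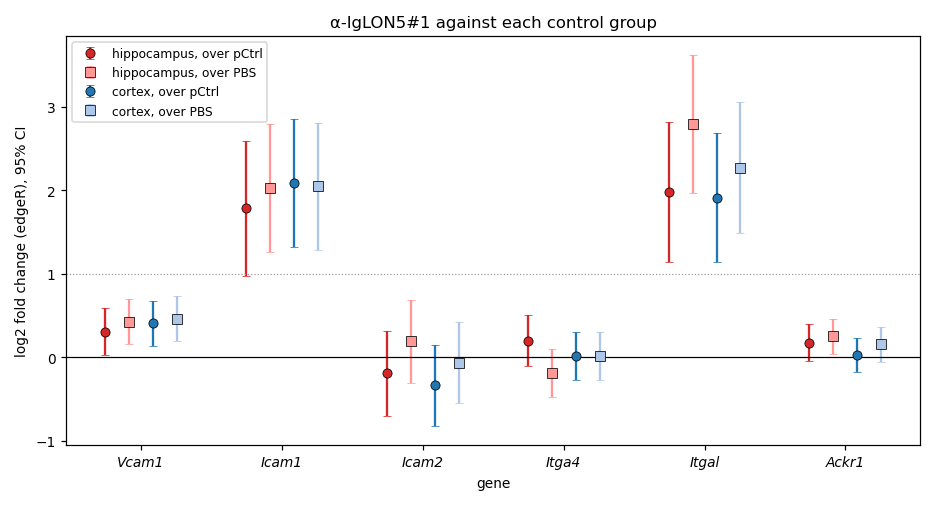
Log2 fold change of α-IgLON5#1 over pCtrl (circles) and over PBS (squares) in hippocampus (red) and cortex (blue) for the 6 tested members, on a vertical axis in log2 units with 95% confidence intervals and a dotted line at 1. Icam1 and Itgal lie between 1.78 and 2.79, Vcam1 between 0.30 and 0.46, and Icam2, Itga4 and Ackr1 between -0.34 and 0.25.

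Vcam1, the endothelial ligand of α4 integrins, had 1.23 to 1.38 times the level of the controls in α-IgLON5#1 tissue and passed the test in 1 of 4 comparisons. Hippocampal levels were 37.6, 35.7, 34.1, 38.1 and 28.7 CPM in PBS mice, 34.8, 38.8, 35.2 and 42.7 in pCtrl mice, and 60.3, 39.1, 40.8 and 46.9 in α-IgLON5#1 mice 8, 9, 16 and 17. The α-IgLON5#1 libraries were all above those of PBS, as in 4.49% of all tested genes, and overlapped those of pCtrl. Log2 fold changes were 0.30 ± 0.137 over pCtrl (adjusted p = 0.192) and 0.42 ± 0.130 over PBS (adjusted p = 0.0655), and DESeq2 gave the latter an adjusted p of 0.0392. Without the hippocampal library of mouse 8, edgeR gave 0.16 over pCtrl (adjusted p = 0.586) and 0.28 over PBS (adjusted p = 0.372).

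Cortical Vcam1 levels were 29.9, 31.9, 32.0, 33.9 and 28.1 CPM in PBS mice, 34.1, 30.9, 33.9, 30.4 and 32.7 in pCtrl mice, and 60.5, 33.4, 38.1 and 39.5 in α-IgLON5#1 mice 8, 9, 16 and 17. Mouse 9 fell within both control ranges and mouse 8 lay far above the rest. The differences were 0.40 ± 0.130 over pCtrl (adjusted p = 0.0930) and 0.46 ± 0.130 over PBS (adjusted p = 0.0499) on the log2 scale. The call over PBS was lost in 11 of 17 alternative settings. Without the cortical library of mouse 8 the log2 fold changes were 0.197 over pCtrl (adjusted p = 0.520) and 0.25 over PBS (adjusted p = 0.580).

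Icam2, the constitutive endothelial ligand of LFA-1, did not pass the test in any comparison. Group means lay between 1.54 and 2.0005 CPM in all 6 groups, and the 4 log2 fold changes of α-IgLON5#1 ran from -0.34 (cortex over pCtrl, 95% interval -0.83 to 0.15) to 0.19 (hippocampus over PBS, -0.31 to 0.68). With 22 to 119 counts per library its intervals were the widest of the 4 members without a called rise over pCtrl.

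Itga4, the α4 chain that binds VCAM-1, was likewise not called. Hippocampal levels were 50.9, 43.6, 52.5, 46.8 and 49.4 CPM in PBS mice, 33.9, 49.9, 24.6 and 39.6 in pCtrl mice, and 43.9, 41.8, 42.1 and 42.2 in α-IgLON5#1 mice 8, 9, 16 and 17. The 4 pCtrl hippocampi spread most and the 4 α-IgLON5#1 hippocampi least. On the tissue composition score, where higher is more cortex-like, pCtrl hippocampi 37 and 10, the lowest in Itga4, had 1.35 and 0.774. All other hippocampi had -0.568 to 0.124. The part of tissue composition in this spread was not tested. The log2 fold change of Itga4 was 0.20 over pCtrl (95% interval -0.10 to 0.50, adjusted p = 0.464) and -0.19 over PBS (-0.48 to 0.094, adjusted p = 0.574). In the cortex, where means were 38.6 ± 6.79, 38.7 ± 4.997 and 39.1 ± 3.19 CPM in PBS, pCtrl and α-IgLON5#1 mice, the log2 fold changes were 0.013 over pCtrl (95% interval -0.27 to 0.30) and 0.016 over PBS (-0.27 to 0.30).

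Ackr1, the chemokine-binding receptor of venules, differed little between treatments and more between tissues. Hippocampal levels were 18.5, 19.8, 19.5, 20.5 and 19.9 CPM in PBS mice, 20.7, 19.3, 23.2 and 19.8 in pCtrl mice, and 28.7, 20.3, 21.9 and 22.8 in α-IgLON5#1 mice 8, 9, 16 and 17. Mouse 8 was highest here and in the cortex, where it had 39.1 CPM and the other α-IgLON5#1 mice 26.6 to 28.8. The log2 fold change over pCtrl was 0.17 in the hippocampus (95% interval -0.047 to 0.39, adjusted p = 0.363) and 0.024 in the cortex (-0.18 to 0.23, adjusted p = 0.943).

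In PBS mice, Ackr1 was higher in the cortex (27.7 ± 2.60 CPM) than in the hippocampus (19.6 ± 0.729 CPM), with a log2 difference of 0.50 (standard error 0.0953, adjusted p = 0.000246) and no overlap, as in 9.19% of all tested genes. It was the 1 of 6 tested members called higher in this comparison, where 14.1% of all genes were, and 0 of the 6 were called lower (12.7% of all genes). However, 361 bases, or 25.7% of the merged exons of Ackr1, lie inside exons of Cadm3 on the same strand, which reads cannot always tell apart. Cadm3, a neuronal adhesion gene, stood at 576 ± 59.7 CPM in PBS cortex and 394 ± 37.2 in PBS hippocampus, a log2 difference of 0.55 (standard error 0.0734, adjusted p = 2.38e-06). How much of the Ackr1 count came from Cadm3 transcripts was not tested. Itgal was also higher in each PBS cortex than in each PBS hippocampus (log2 difference 0.87, standard error 0.400), but did not pass (adjusted p = 0.115), and Itga4 had a log2 difference of -0.33 (adjusted p = 0.0631). Both PBS tissues came from the same mice. With the mouse as a block, edgeR gave adjusted p values of 5.18e-05 for Ackr1, 0.0591 for Itgal, 0.0766 for Itga4 and 0.0571 for Vcam1.

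The other overlaps were on the opposite strand, and the strand setting of the counting is not given in the sources used here. Gm47079 covers 11.7% of the Icam1 exons, at 0.934 to 1.12 CPM on average in each group, and did not pass the test against pCtrl (log2 fold change -0.21, adjusted p = 0.6245 in the hippocampus, and -0.0071, adjusted p = 0.993 in the cortex). Cerkl covers 8.04% of the Itga4 exons and was at 1.88 to 3.29 CPM.

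The selectins gave the most uneven pattern of the 8 members. Selp counts were 0, 2, 0, 1 and 1 in PBS hippocampi, 0, 3, 1 and 1 in pCtrl hippocampi, and 79, 1, 0 and 5 in α-IgLON5#1 mice 8, 9, 16 and 17. In the cortex they were 0, 0, 0, 1 and 0 for PBS, 0 in all 5 pCtrl libraries, and 292, 3, 1 and 4 in the same α-IgLON5#1 mice. Mouse 8 thus held 92.9% of the Selp counts of the α-IgLON5#1 hippocampi (exact 95% interval 85.3 to 97.4%) and 97.3% of those of the cortices (94.8 to 98.8%), intervals that cover counting error only.

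Sele counts were 0, 3, 1, 1 and 3 in PBS hippocampi, 0, 0, 2 and 0 in pCtrl hippocampi, and 153, 2, 0 and 1 in α-IgLON5#1 mice 8, 9, 16 and 17. In the cortex they were 3, 2, 2, 7 and 0 for PBS, 0, 4, 2, 1 and 0 for pCtrl, and 486, 4, 4 and 12 in the same α-IgLON5#1 mice. Mouse 8 held 98.1% of the group's Sele counts in the hippocampus (exact 95% interval 94.5 to 99.6%) and 96.0% in the cortex (94.0 to 97.6%), although its libraries made up 18.7% and 22.2% of all counts of the group. Both tissues of the one animal were raised in both genes, to 3.89 and 7.93 CPM for Selp and 7.53 and 13.2 CPM for Sele in hippocampus and cortex.

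Over pCtrl, the exact two-sided permutation test on CPM gave p = 0.257 for Selp and p = 0.257 for Sele in the hippocampus (smallest possible p 0.0286). In the cortex the same exact test gave p = 0.00794 for Selp, the smallest possible, and p = 0.0397 for Sele. All 4 α-IgLON5#1 cortices had at least 1 Selp count and the 5 pCtrl cortices had 0, which is 4 of 4 libraries higher, but 3 of the 4 had only 1 to 4 counts. With no count filter, edgeR gave adjusted p values of 0.0882 (Selp) and 0.0254 (Sele) in the hippocampus and 0.00939 and 0.0122 in the cortex, values that rest on mouse 8. The other 3 α-IgLON5#1 mice had at most 0.143 CPM of Selp and 0.215 CPM of Sele, beside at most 0.0564 and 0.221 CPM in the control libraries.

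**Figure D3:**
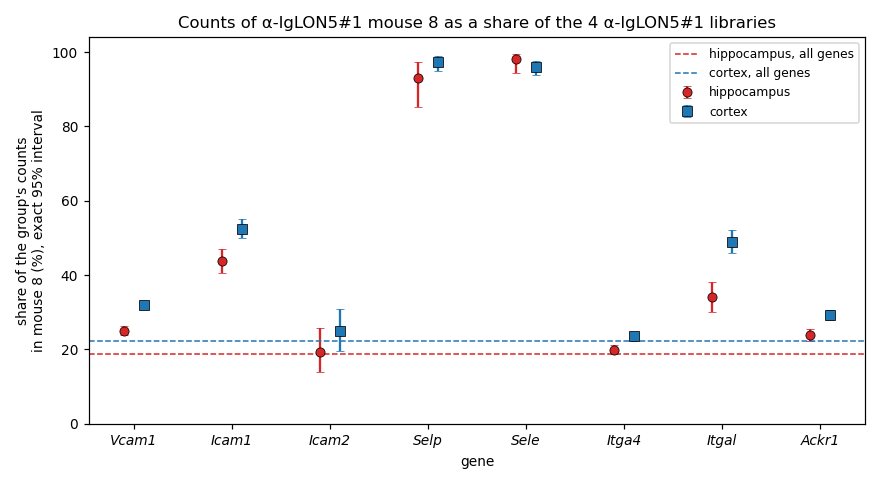
Share of the counts of the 4 α-IgLON5#1 libraries that came from mouse 8 (vertical axis, %, from 0), for each member in hippocampus (circles) and cortex (squares), with exact 95% intervals and dashed lines at mouse 8's share of all counts (18.7% and 22.2%). Selp and Sele lie between 92.9% and 98.1%, Icam1 between 43.8% and 52.5%, and Icam2 and Itga4 near the dashed lines.

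Mouse 8 was also highest of the 4 α-IgLON5#1 mice in Vcam1, Icam1, Itgal and Ackr1 in both tissues. Its level relative to the mean of the other 3 was 3.08 in the hippocampus and 3.72 in the cortex for Icam1, 2.19 and 2.97 for Itgal, 1.43 and 1.64 for Vcam1 and 1.33 and 1.39 for Ackr1. For Icam2 it was 1.07 and 1.13, and for Itga4 1.04 and 1.04. Of the 20271 tested genes, 85 (0.419%) were at least 4 times higher in mouse 8 than the mean of the other 3 in both tissues. Among the genes of the lists used here, these included Tnf (17.0 and 11.7 times) and Il1b (10.7 and 20.4), both cytokine genes, and the chemokine Cxcl1 (14.6 and 30.0). Their part in the selectin levels of mouse 8 was not tested.

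The members were also set beside marker genes of endothelium and leukocytes. Other cells can express the members too, and a ratio to markers does not tell more cells from more RNA per cell. The endothelial markers moved little, as 1 of 12 was called in the hippocampus over pCtrl (Emcn, log2 fold change 0.55, adjusted p = 0.0379) and 0 in the cortex, where 1 had an unadjusted p under 0.05 and DESeq2 called 1. Without mouse 8, 0 were called in either tissue, and 1 in each had an unadjusted p under 0.05. Their summed level was 289 ± 40.0 CPM in α-IgLON5#1 and 299 ± 19.02 in pCtrl hippocampi, and 247 ± 26.1 and 268 ± 9.40 in the cortices. Of the 8 pericyte and smooth muscle markers, 0 were called in either tissue (0 at an unadjusted p under 0.05, and 0 by DESeq2). General leukocyte markers did change, with 4 of 5 called higher in both tissues, with and without mouse 8. Ptprc, which encodes the pan-leukocyte protein CD45 and is also expressed by microglia, had log2 fold changes of 1.97 (adjusted p = 5.41e-06) and 2.05 (adjusted p = 5.52e-06). The summed leukocyte marker level was 230 ± 36.7 CPM in α-IgLON5#1 and 138 ± 8.06 in pCtrl hippocampi.

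Relative to the endothelial markers, Icam1 was higher in α-IgLON5#1 cortices than in pCtrl cortices by 1.87 on the log2 scale, and Vcam1 by 0.51 (exact permutation p = 0.00794 for each, adjusted p = 0.0423 over 16 ratios of the 8 members, 4 of 4 libraries above all controls). Selp passed at the same p, with a difference of 2.26. The 5 pCtrl cortices had 0 Selp counts, so their ratios were set by the pseudocount and the endothelial level. The α-IgLON5#1 cortices of mice 9, 16 and 17 held 3, 1 and 4 counts, so this separation rests on few reads. Without the cortical library of mouse 8 the differences were 1.36 for Icam1, 0.30 for Vcam1 and 0.83 for Selp, and none passed (adjusted p = 0.0714 for each, exact permutation test). In the hippocampus, the Icam1 ratio was higher by 1.55 (exact permutation p = 0.0286, the smallest possible, adjusted p = 0.0762), and that of Vcam1 by 0.28 (p = 0.114, exact permutation test). Relative to the leukocyte markers, Itgal was higher than in pCtrl by 0.76 and 0.49 in hippocampus and cortex, without passing (exact permutation p = 0.200 and 0.167). The cortical difference was 0.22 without the cortical library of mouse 8. Hippocampal Itgal ratios ran from -3.46 to -2.08 in α-IgLON5#1, -4.43 to -2.82 in pCtrl and -4.49 to -3.55 in PBS mice. The Itga4 ratio to the same markers differed by -0.91 and -1.04, with all α-IgLON5#1 libraries lower, and did not pass after adjustment (exact permutation p = 0.0286 and 0.0159, adjusted p = 0.0762 and 0.0635). Itga4 itself had log2 fold changes of 0.20 and 0.013, so this ratio moved with the marker level in its denominator. The number of passing ratios fell from 3 to 0 when any cortical library of these groups was left out, which raises the smallest possible p.

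**Figure D4:**
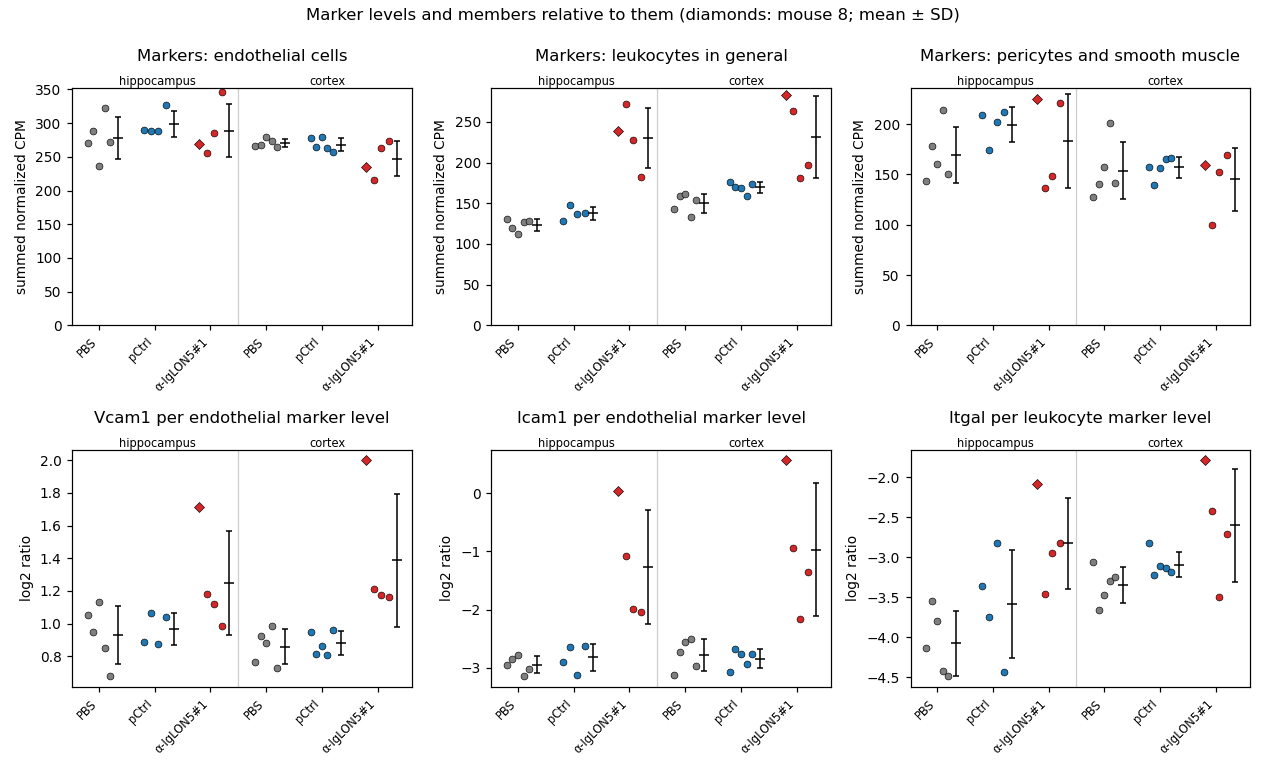
Upper panels show the summed normalized CPM of endothelial, leukocyte and pericyte markers in each library, and lower panels the log2 ratio of Vcam1 and Icam1 to the endothelial and of Itgal to the leukocyte marker level, for the 6 groups. Points are libraries, diamonds are α-IgLON5#1 mouse 8 and bars are the mean ± SD. Icam1 per endothelial marker level is higher in all α-IgLON5#1 libraries than in pCtrl libraries of the same tissue, while the endothelial markers overlap between groups.

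Among the partners of the members, the β2 chain Itgb2, which completes LFA-1, rose with log2 fold changes of 1.77 over pCtrl in the hippocampus (adjusted p = 6.70e-07) and 1.24 in the cortex (adjusted p = 3.10e-05). The αM chain Itgam (1.26 and 1.18) and the αX chain Itgax (2.59 and 3.10), which also pair with β2, were called in both tissues. The chains that pair with α4 were not called, with log2 fold changes of -0.034 and 0.085 for Itgb1 and 1.14 and 1.16 for Itgb7 (adjusted p = 0.0535 and 0.0745). Selplg, the leukocyte ligand of P-selectin, was at 0.32 and -0.057 (adjusted p = 0.216 and 0.902). In all, 3 of the 10 integrin partners and selectin ligands were called higher in the hippocampus and 5 in the cortex (medians 0.95 and 1.17), and 0 lower. Without mouse 8, 3 were called in each tissue.

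Other endothelial adhesion and junction genes moved little. Of 15 genes, 13 were tested, and by edgeR only F11r, which encodes the junctional protein JAM-A, was called higher, by 0.78 in the hippocampus (adjusted p = 8.95e-05) and 0.45 in the cortex (adjusted p = 0.0172). Cd99l2 was called lower in the hippocampus, by -0.22 (adjusted p = 0.0348). DESeq2 called 3 of these genes in the hippocampus and 2 in the cortex. At an unadjusted p under 0.05 (edgeR), 2 were higher and 3 lower in the hippocampus, and 1 higher and 2 lower in the cortex. Pecam1 (0.15 and 0.13) and Cdh5 (-0.038 and 0.089), both proteins of endothelial contacts, were not called. The median log2 fold change of these genes was 0.15 and -0.0025. Without mouse 8, 1 gene was called higher and 1 lower in the hippocampus, and 0 in the cortex, where 1 was higher and 1 lower at an unadjusted p under 0.05.

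Of the cytokines that induce endothelial adhesion molecules and their receptors, 5 of 10 tested genes were called higher in the hippocampus and 7 of 10 in the cortex (medians 0.76 and 1.06), and 0 lower. Tnf had log2 fold changes of 6.71 and 7.33, and did not pass the filter on low counts without both libraries of mouse 8. Il1b had 4.56 and 4.76, and 2.79 and 2.20 without mouse 8 (adjusted p = 7.99e-05 and 0.000954, edgeR). The cytokine gene Il4 had -0.074 and -0.0012 and was not called. The receptor genes Tnfrsf1b (1.27 and 1.45) and Ifngr1 (0.56 and 0.39) were also called in both tissues. Without mouse 8 Tnfrsf1b was at 0.97 and 0.73. Ifngr1 was then at 0.49 and 0.28, and was not called in the cortex (adjusted p = 0.0928, edgeR). Of the NF-κB feedback genes, which NF-κB itself induces, 4 of 12 were called in the hippocampus and 10 of 12 in the cortex, including Nfkb2 (1.60 and 1.69) and Nfkbiz (1.16 and 1.09). Without mouse 8 Nfkb2 was at 1.005 and 0.92 and Nfkbiz at 1.07 and 0.72. Chemokines that Ackr1 binds were called in 4 of 5 cases in the hippocampus and 5 of 5 in the cortex, with Ccl2 at 5.09 and 6.19 and Ccl5 at 3.70 and 5.60. Without mouse 8, Ccl2 had 2.99 and 4.29 (adjusted p = 0.0156 and 0.000605) and Ccl5 3.02 and 4.61 (adjusted p = 0.00285 and 0.000219). Ackr1 itself did not pass the test in either tissue. Without mouse 8, 3 of 9 tested genes of cytokines and their receptors, 5 of 12 NF-κB feedback genes and 3 of 4 chemokines were called in the cortex. In the hippocampus these counts were 5 of 9, 4 of 12 and 2 of 4.

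**Figure D5:**
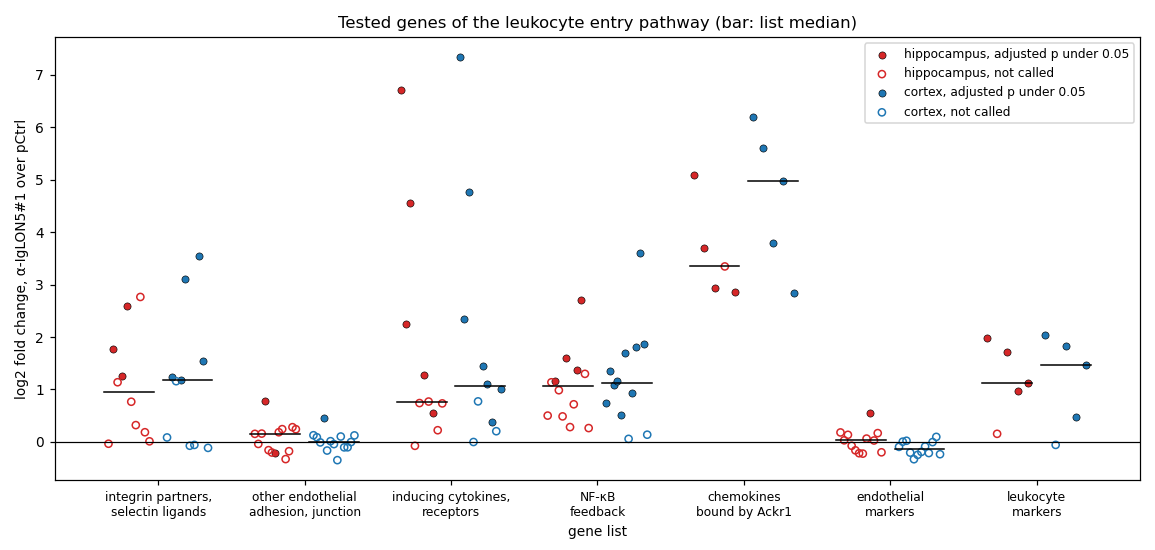
Log2 fold change of α-IgLON5#1 over pCtrl (vertical axis) for the tested genes of 7 lists in hippocampus (red) and cortex (blue), 1 point per gene, filled where the adjusted p is under 0.05, with a bar at the list median. Cytokine, chemokine, NF-κB and leukocyte genes lie mostly above 0, while endothelial markers and other endothelial adhesion genes lie close to 0.

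Markers of other cell types in the tissue were checked next to these results. Choroid plexus, meningeal fibroblast and erythrocyte lists had 0 called genes over pCtrl in either tissue by edgeR and by DESeq2. At an unadjusted p under 0.05 there were 3 choroid plexus genes and 1 erythrocyte gene in the hippocampus, all lower, and 1 meningeal gene in the cortex, which was higher. The median log2 fold change of the choroid plexus list was -1.11 in the hippocampus and -0.198 in the cortex. Of the 7 neutrophil markers, Csf3r alone was called (log2 fold change 1.55 and 1.18), also without mouse 8, while S100a8 (0.035 and 0.88), S100a9 (0.29 and 1.20), Camp and Mmp9 were not, and Ly6g and Retnlg did not reach the filter. In mouse 8, however, S100a8 was 5.50 and 14.5 times and S100a9 6.02 and 16.5 times the mean of the other 3 α-IgLON5#1 mice. Without mouse 8 the log2 fold changes over pCtrl were -0.89 and -1.17 for S100a8 and -0.75 and -0.997 for S100a9, none of them called. The part of neutrophils in the selectin levels of mouse 8 was not tested. B cell markers were called in 4 of 6 tested genes in the hippocampus and 2 of 6 in the cortex, and T cell markers in 1 of 5 in each. Without mouse 8, 1 of 4 B cell markers was called in each tissue and 0 of 3 T cell markers, of which 1 in the hippocampus and 2 in the cortex had an unadjusted p under 0.05. Cd3d, Cd3e, Cd8a and Cd8b1 did not reach the filter. Of the 8 microglia markers, 4 were called higher in the hippocampus and 0 in the cortex by edgeR and by DESeq2. At an unadjusted p under 0.05, 2 were higher and 2 lower in the cortex, where P2ry12 was at -0.43 and Gpr34 at -0.55. The part of these cells in the Itgal level was not tested. Of the 7 astrocyte markers, Gfap, a filament gene that reactive astrocytes raise, was called in both tissues (1.31 and 1.46, and 1.19 and 0.98 without mouse 8), and the other 6 were not. Astrocytes can also express Icam1 and Vcam1, and their part in those levels was not tested. Of the 7 neuron markers, Tubb3 was called lower in the hippocampus (-0.34, adjusted p = 0.0269), but not without mouse 8 (-0.32, adjusted p = 0.0928). In the cortex edgeR called 0 neuron markers and DESeq2 called 1, and 2 were lower at an unadjusted p under 0.05.

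Of the 6 tested members, 0 differed between tissues in their response by the interaction test, in which 0% of all genes were called for the comparison with pCtrl and 0.00493% for that with PBS. At an unadjusted p under 0.05 the number of members was also 0, and DESeq2 called 0. For Icam1 the hippocampal log2 fold change over pCtrl minus the cortical one was -0.31 (95% interval -1.41 to 0.80), for Itgal 0.065 (-1.05 to 1.18) and for Vcam1 -0.10 (-0.49 to 0.29). With the mouse as a block, which uses the 13 mice that gave both tissues, the differences were -0.25 (95% interval -0.64 to 0.15) for Icam1, 0.37 (-0.57 to 1.304) for Itgal and -0.066 (-0.26 to 0.13) for Vcam1, none of them called. The interval of Icam1 was narrower with the block, and that of Itgal still reached beyond 1 log2 unit.

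The control antibody alone was compared with PBS. Of the 6 tested members, 0 were called in the hippocampus, where 0.133% of all genes were called higher and 0.0592% lower, and 0 in the cortex, where 0% were. DESeq2 likewise called 0, and at an unadjusted p under 0.05 there was 1 member (Itga4) in the hippocampus and 0 in the cortex. The log2 differences of pCtrl over PBS were 0.24 and -0.042 for Icam1, 0.12 and 0.056 for Vcam1 and 0.82 and 0.36 for Itgal. The closest to the threshold was hippocampal Itga4 (-0.39, 95% interval -0.68 to -0.11, adjusted p = 0.172), which was called lower when pCtrl mouse 15 was left out. The pCtrl hippocampi lowest in Itga4, of mice 37 and 10, had the most cortex-like tissue composition scores.

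Across the 27 libraries, the genes whose centred log2 CPM came closest to that of a member were sought as a description. For Icam1 they were Parp14 (root mean square difference 0.236), Nfkb2 (0.273) and H2-Q4 (0.298), where Icam1 itself had a root mean square of 0.932. For Itgal they were Pik3ap1 (0.476), Ms4a6d (0.480) and C3ar1 (0.488), beside 1.15 for Itgal. Vcam1 was closest to Cd63 (0.128), Ripk1 (0.128) and Ets1 (0.132), and Icam2 to Acvrl1 (0.248), Cav1 (0.270) and Etv4 (0.274). The genes closest to Ackr1 were Shisa5 (0.114), Psmb10 (0.140) and Znfx1 (0.144). The libraries share tissue and treatment, so these values carry no test.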

How the data were processed

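mRNA libraries (TruSeq Stranded mRNA kit, paired-end) of 27 tissue samples were analysed. The authors aligned the reads with STAR and deposited raw counts per gene, without normalization. The counting program, its annotation release and its strand setting are not given in the sources used here. Of the 55487 gene identifiers, 55141 matched GENCODE M21 (GRCm38), which gave symbols, positions and merged exon lengths. The total per library was 19385642 to 58550621. No columns were left unassigned, and among 48 pairs of libraries within groups the chi-square divided by its degrees of freedom was at least 4.82, so none repeats another.

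Tests used edgeR 4.0.16 in R 4.3.3 (quasi-likelihood fit of 6 groups, TMM factors) for genes reaching 10 counts in 4 or more libraries, with Benjamini-Hochberg adjustment over all 20271 tested genes. A gene was called at an adjusted p under 0.05. Members under the filter and ratios to marker genes (pseudocount 0.1 CPM) used exact two-sided permutation tests over libraries, and ratios were adjusted over 16 values. Likeness was the root mean square difference of centred log2 CPM (prior count 1), 3 genes per member, and that of Itga4 is not reported here. The scripts were tested on simulated data. Other named genes are the list genes called over pCtrl in the hippocampus with the 4 largest changes and the direct partners of members; further names, and the genes given for mouse 8, were chosen after their values were seen. The members and gene lists were chosen with earlier results of these data known. P-values measure the spread between libraries, which within a tissue come from different mice. The main fit took all 27 libraries as independent, although 13 mice gave both tissues. The fits of only the groups compared hold 1 library per mouse. The block by mouse covers the tissue differences, not the comparisons over pCtrl and PBS within a tissue.

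Mouse numbers recur in both tissues. After subtraction of group means, the correlation between both tissues of a mouse ran from -0.0498 to 0.443 over 13 mice (median 0.194, above 0.1 in 8), and the block by mouse was an alternative. The other alternatives were DESeq2 1.42.0, RLE size factors, other count filters, a fold threshold of 2, only the groups compared, covariates for tissue composition and endothelial markers, mice 8 to 17, a pseudocount of 0.5, and each library left out. Leaving out both libraries of mouse 8 was chosen after seeing the data.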

Additional observations from a re-analysis of the deposited data

Results flagged for a closer look

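Of 47 sets of 4 or 5 libraries examined, 8 had a library whose gap to the next exceeded Dixon's 95% critical value, and chance gives about 1 in 20 for continuous values. That rate does not hold for the sets of selectin counts that are mostly 0, where a single library with a count exceeds the critical value by construction, so the 8 are not read against it. In 4 of the 8 it was α-IgLON5#1 mouse 8, with Selp at 3.89 CPM (79 counts) in the hippocampus and 7.93 CPM (292 counts) in the cortex, and Sele at 7.53 CPM (153 counts) and 13.2 CPM (486 counts). The other values were Selp in the PBS cortex of mouse 38 (0.0315 CPM, 1 count), Sele in the pCtrl hippocampus of mouse 37 (0.0476 CPM, 2 counts) and Sele in the pCtrl cortex of mouse 11 (0.213 CPM, 4 counts), all of a few counts. Itga4 in the pCtrl cortex of mouse 15 was low at 30.0 CPM (1272 counts), below the 39.8 to 42.3 CPM of the other pCtrl cortices.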

How the results depend on the processing

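The number of members called over pCtrl in the hippocampus (2) was 1 with only the pair of groups in the fit and 1 with the tissue composition score, and 1 to 2 with single libraries left out. With no count filter, Sele was also called there (adjusted p = 0.0254, edgeR). In the cortex (2) it was 1 with only the pair of groups, 4 with no count filter, and 2 to 3 with single libraries left out. Mice 8 to 17 alone left 0 in both tissues. Over PBS in the cortex (3), no count filter gave 5, with Selp and Sele added. Between PBS tissues (1), a fold change above 2 left 0 and DESeq2 gave 2, and single libraries gave 1 to 2. For pCtrl over PBS in the hippocampus (0), single libraries gave 0 to 1. The 3 passing ratios became 7 with PBS libraries as controls, and 0 to 3 with single libraries left out. Without the count filter, edgeR called 6 of the selectin comparisons. With the mouse number as a replicate block, 0 members were called for the tissue difference and 1 between PBS tissues, so the block changed no call. The cause of these changes was not tested.

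Values near 0 changed sign, none of them called. With the tissue composition score, Itga4 over pCtrl was -0.014 in the hippocampus and -0.11 in the cortex. With the endothelial marker score, Itga4 in the cortex was -0.052 over pCtrl and -0.034 over PBS, and Icam2 over PBS was -0.017 in the hippocampus and 0.099 in the cortex. Mice 8 to 17 gave Ackr1 at -0.035 over pCtrl in the cortex. Leaving out both libraries of mouse 8 gave -0.11. With PBS as control, the Icam2 ratio to endothelial markers was 0.0039 in the hippocampus and 0.072 in the cortex. With single libraries left out, cortical values ran from -0.11 to 0.091 (Ackr1 over pCtrl), -0.22 to 0.044 (Icam2 over PBS), -0.072 to 0.070 (Itga4 over PBS) and -0.068 to 0.054 (Itga4 over pCtrl), and Icam2 over PBS in the hippocampus from -0.16 to 0.37. Depth limits the selectins, whose control libraries hold 0 to 7 counts.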
